A study of Sus scrofa with 8 samples.

Results

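The genes described here are neuronal effectors, which are the cytoskeletal, synaptic, RNA-binding, adhesion and secretory genes that a neuron uses once its transcription factors have been switched on. They were chosen by symbol, as a list of 47 genes in 8 roles; the rule uses no measured value, but the list was drawn up with earlier results of these data known. Of the 47, 43 have an identifier with that symbol in the pig gene names, out of 24358 identifiers in the count table, and NEFM, NEFH, NRXN2 and NLGN2 have none and were not analysed here. The question asked of them was whether the rise of neural transcription factors in pig induced pluripotent stem cells that overexpress IRF-1 extends to these effectors. As background, a young neuron builds its axon on microtubules made with neuron-specific tubulin and held by associated proteins, packs transmitter into vesicles that fuse through SNARE proteins, and stores peptides in dense-core granules. Many of these genes are kept silent in other cells by the repressor REST, and some, such as several adhesion and growth cone genes, are also used by embryonic cells that are not neurons.

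RNA-seq was done on DOX-hLIF-2i piPSCs. These are pig stem cells reprogrammed from embryonic fibroblasts by doxycycline-inducible factors, on which their growth still depends. The IRF1_OE cells (replicates 1 and 3) were transfected with PB-CAG-IRF1-Flag, in which the CAG promoter drives tagged pig IRF-1, and the control cells (replicates 6 and 8) with PB-CAG-Flag. Cells of either kind were puromycin-selected and passaged, and feeder cells were removed before RNA extraction. The labels name LCDMV as the culture system of all samples, whereas the methods describe a medium with LIF, inhibitors and doxycycline. The genotype in the sample labels reads overexpression for all 4 libraries and so does not separate the groups, which were taken from a figure legend of the study and matched by the sample titles. No source used here says that the libraries of a group came from separate cultures or clones, so the p-values measure the spread between these samples, which may be technical.

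IRF1 itself was examined first, since the labels leave the groups open. Its values were not used to form them. IRF1 (ENSSSCG00000014277, chr2:134776124-134783819, minus strand) had 8206 and 5485 counts in IRF1_OE replicates 1 and 3 and 55 and 56 counts in control replicates 6 and 8. Both libraries taken as IRF1_OE were far above both taken as control, with a log2 fold change of 6.46 ± 0.21 (SE; edgeR, adjusted p = 3.65e-05). The counts do not separate introduced from endogenous transcripts.

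Reads counted on genes numbered 24923319 and 20858333 in IRF1_OE replicates 1 and 3 and 15925429 and 17097669 in control replicates 6 and 8. Levels are given as CPM, counts scaled to a common library size with TMM normalisation, in which a single count is worth between 0.0403 and 0.0640 CPM, or as RPKM, the same divided by exon length in kilobases, where different genes are compared. A fold change is given on the log2 scale as IRF1_OE over control with its standard error (SE). Calling a gene higher or lower took an adjusted p under 0.05 (edgeR quasi-likelihood test over 13250 genes) and a change of 1 or more on the log2 scale. For any gene taken alone, the smallest two-sided p of an exact permutation with 2 v 2 libraries is 0.333, and the adjusted p of edgeR draws on the variance of many genes.

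The cells were labelled as induced pluripotent stem cells. Of 16 pluripotency markers, 7 have a named identifier, and SALL4, POU5F1, SOX2, UTF1, TDGF1, L1TD1, TFCP2L1, ZFP42 and DPPA3 do not. Summed, the 7 had 1234 and 1277 CPM in IRF1_OE replicates 1 and 3 and 1480.2 and 1642 CPM in control replicates 6 and 8. DNMT3B had the most counts of them in every library, with 1035 and 1006 against 694 and 997 CPM in IRF1_OE against control, and LIN28A had 164 and 186 against 506 and 382 CPM. NANOG had 8 and 11 against 5 and 9 counts and DPPA5 2 and 0 against 0 and 2 counts, both low in all 4 libraries. In these counts the label can thus be read from a few markers only. The study also examined the parent cells by alkaline phosphatase staining, OCT4 and SOX2 immunofluorescence and differentiation in vitro. Of the 5 markers tested, LIN28A, CDH1 and ESRRB were called lower in the IRF1_OE cells (log2 fold changes of -1.34, -2.25 and -4.19; edgeR, adjusted p = 0.00146, 0.00676 and 0.000246). LIN28A was not called by a stricter test of the fold limit (glmTreat). EPCAM, with 7.97 and 8.99 against 7.23 and 7.38 CPM, and DNMT3B were not called.

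Of the 43 neuronal effectors, 40 passed the filter on low counts, and 16 of these 40 were called higher in the IRF1_OE cells (40.0%, against 8.61% of all genes tested). Another 3 of the 40 were called lower (7.5%, against 10.6% of all genes tested), and 21 were not called. The median log2 fold change of the 40 was 0.50, against -0.00162 over all genes tested. SNAP91 and STMN4 passed the filter through the IRF1_OE libraries alone, having under 0.527 CPM in both controls, and could therefore be tested because they were high there. SYT4, RBFOX3 and SCG2 did not pass it. Without control replicate 8, 5 members were called lower in place of 3, and the median of the 41 members then tested was 0.91. Without control replicate 6 that median was 0.85, also over 41 members. With no filter on low counts it was 0.86 over all 43 members with a named identifier. By DESeq2 it was 0.56 over the 41 members given an adjusted p and 0.85 over all 43. Without IRF1_OE replicate 1, 13 members were called higher, while the calls over all genes were reduced from 1141 to 756 higher and from 1410 to 874 lower. In bulk RNA, a larger number of cells of a neuronal type and more RNA per cell cannot be told apart.

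**Figure D1:**
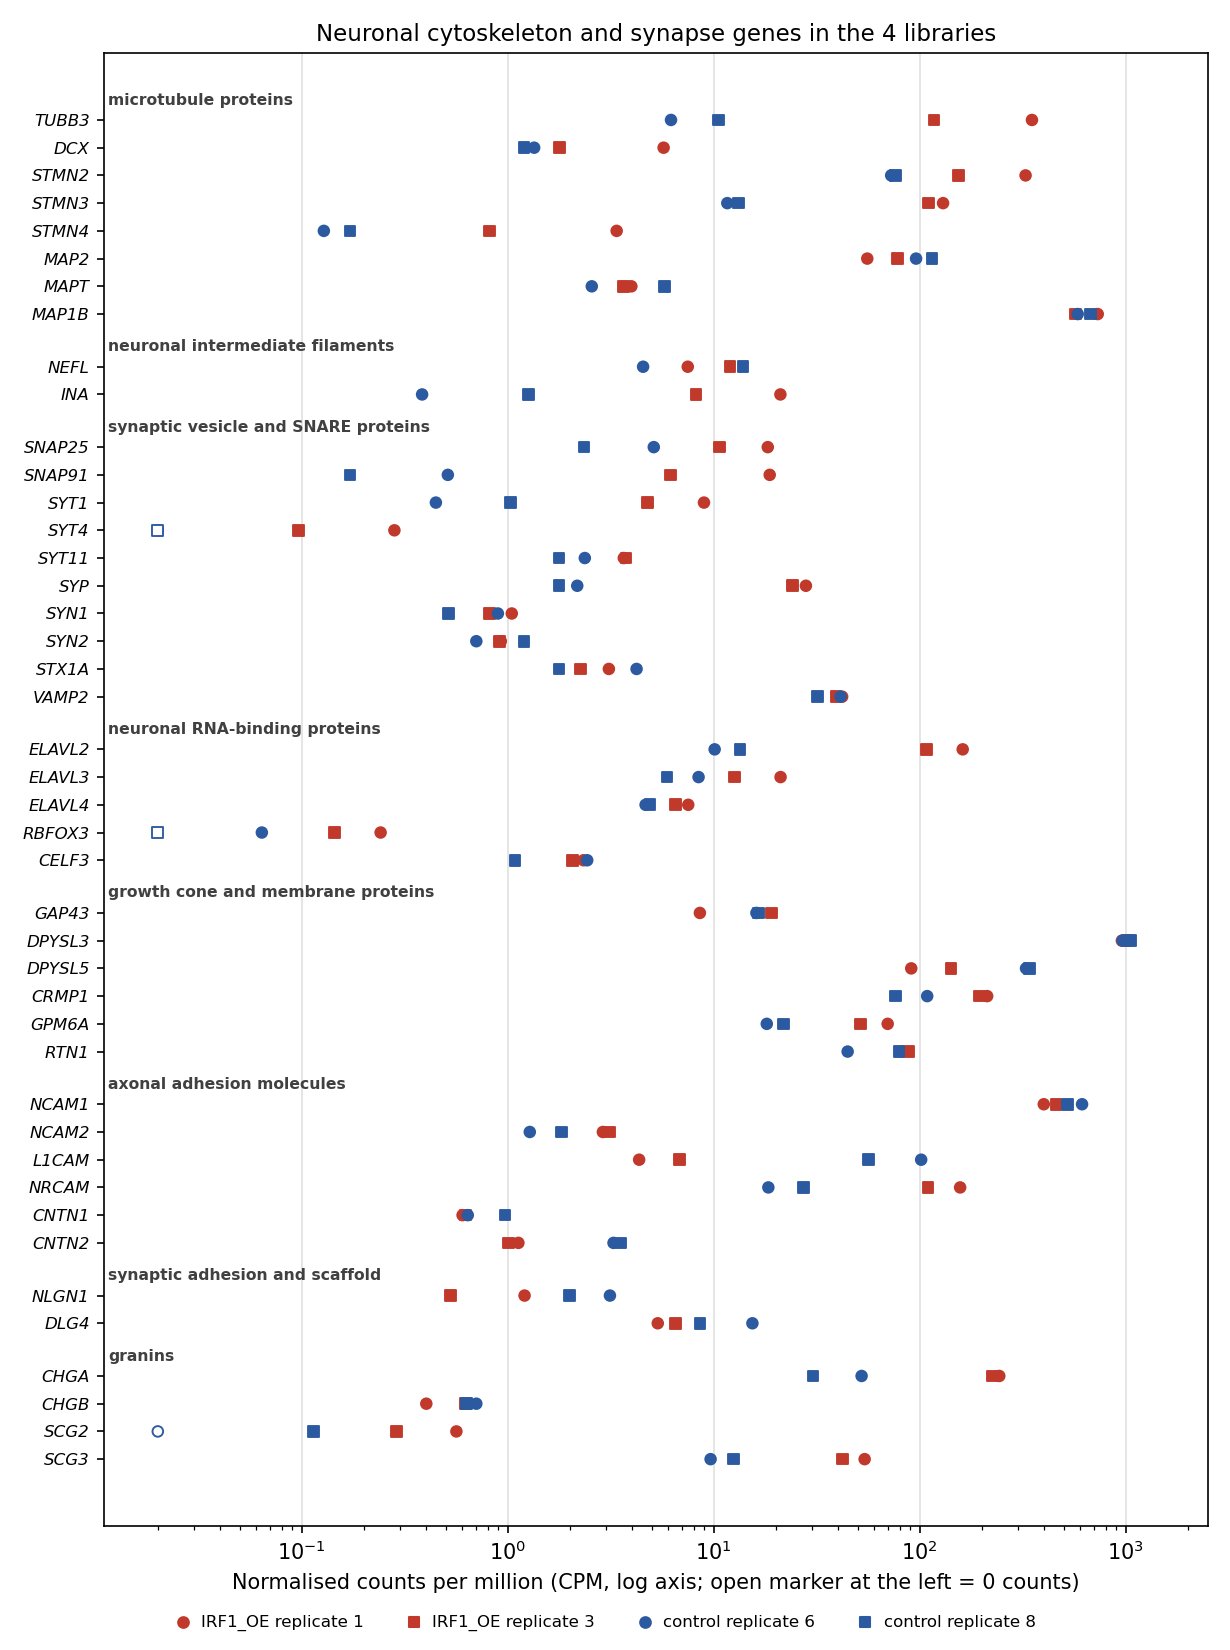
Normalised counts (CPM, log axis) of the 43 neuronal effectors with a named identifier, grouped by role, with 1 marker for each library (red for IRF1_OE, blue for control). TUBB3, INA, SNAP91, SYP and ELAVL2 lie far to the right in both IRF1_OE libraries, L1CAM and DPYSL5 lie to the left, and MAP1B, DPYSL3 and VAMP2 have the groups mixed.

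Among the microtubule proteins, TUBB3 and the 3 stathmins were higher, whereas the classical structural proteins MAP2, MAPT and MAP1B were not. TUBB3 (ENSSSCG00000002639, chr6:168452-178462, minus strand), the beta-tubulin of neurons, had 351 and 117 CPM in IRF1_OE replicates 1 and 3 and 6.21 and 10.6 CPM in control replicates 6 and 8. Both IRF1_OE libraries were far above the controls, and replicate 1 was about 3 times replicate 3 (ratio of 2.99). The log2 fold change was 4.80 ± 0.54 (SE; edgeR, adjusted p = 0.000961). It was 3.81 without IRF1_OE replicate 1 and 5.39 without IRF1_OE replicate 3, so the direction held in both while the size depended on the library.

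Stathmins bind free tubulin and regulate how microtubules shrink in growing axons. STMN3 (ENSSSCG00000038405, chr17:62596941-62608762, minus strand) had 130.0 and 111 CPM in IRF1_OE replicates 1 and 3 and 11.6 and 13.2 CPM in control replicates 6 and 8. The replicates lay close together and the groups were widely apart, with a log2 fold change of 3.27 ± 0.17 (SE; edgeR, adjusted p = 9.79e-05). STMN2 (ENSSSCG00000006160, chr4:56952709-57006661, minus strand) had 327 and 155 CPM in IRF1_OE replicates 1 and 3 and 72.8 and 76.3 CPM in control replicates 6 and 8. It was already abundant in the controls and higher in both IRF1_OE libraries, with a log2 fold change of 1.69 ± 0.31 (SE; edgeR, adjusted p = 0.00636) that was 1.07 without IRF1_OE replicate 1. STMN4 (ENSSSCG00000009662, chr14:10987180-11007628, minus strand) had 84 and 17 counts in IRF1_OE replicates 1 and 3 and 2 and 3 counts in control replicates 6 and 8. The controls were at the floor of 3 counts per library, and most STMN4 counts came from a single IRF1_OE library. The ratio of the groups was 14.7 (95% counting interval 6.08 to 46.1), or 5.41 (1.92 to 18.8) without IRF1_OE replicate 1 and 22.4 (9.22 to 70.8) without IRF1_OE replicate 3. The call (edgeR, adjusted p = 0.0169) was lost without IRF1_OE replicate 1 (edgeR, adjusted p = 0.169). The fitted log2 fold change of 3.76 was 2.40 without that replicate and 4.43 without IRF1_OE replicate 3.

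The other microtubule genes were tested but not called. DCX, which stabilises microtubules in migrating neurons, had 5.72 and 1.78 CPM in IRF1_OE replicates 1 and 3 and 1.34 and 1.20 CPM in control replicates 6 and 8. Both IRF1_OE values were above both controls, but replicate 1 supplied most of the difference, and the log2 fold change of 1.56 ± 0.59 (SE; edgeR, adjusted p = 0.0856) was not called. Without IRF1_OE replicate 3 it was 2.17 and called, but over the 4 libraries left out in turn it ranged from 0.50 to 2.17. With no filter on low counts it was also called (edgeR, adjusted p = 0.00695). MAP2, the microtubule-associated protein of dendrites, had 55.7 and 78.1 CPM in IRF1_OE replicates 1 and 3 and 96.1 and 115 CPM in control replicates 6 and 8. Here the IRF1_OE libraries were the lower ones, and the log2 fold change of -0.66 ± 0.19 (SE; edgeR, adjusted p = 0.0375) was past the p limit but within the fold limit. MAP1B, an axonal microtubule protein, had 733 and 570.4 CPM in IRF1_OE replicates 1 and 3 and 586 and 676 CPM in control replicates 6 and 8, and MAPT, the axonal protein tau, had 3.98 and 3.65 against 2.56 and 5.77 CPM. The groups overlapped for both, with log2 fold changes of 0.05 and -0.13.

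Neuronal intermediate filaments form the inner scaffold of axons. INA (ENSSSCG00000010595, chr14:114227993-114240558, plus strand), alpha-internexin, had 21.1 and 8.22 CPM in IRF1_OE replicates 1 and 3 and 0.384 and 1.26 CPM in control replicates 6 and 8. Both controls were low, at 6 and 22 counts, and both IRF1_OE libraries were above them, with a log2 fold change of 4.13 ± 0.63 (SE; edgeR, adjusted p = 0.00293). That value was 3.31 without IRF1_OE replicate 1, 3.54 without control replicate 6 and 5.24 without control replicate 8. NEFL, the light neurofilament chain, had 7.49 and 12.0 CPM in IRF1_OE replicates 1 and 3 and 4.54 and 13.9 CPM in control replicates 6 and 8. The control values lay further apart than the IRF1_OE values and enclosed them, and the log2 fold change was 0.07 ± 0.49 (SE; edgeR, adjusted p = 0.929).

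Of the 10 synaptic vesicle and SNARE genes, 9 were tested and 4 were higher (44.4%, against 8.61% of all genes tested). SYP (ENSSSCG00000012292, chrX:43230500-43246751, minus strand), synaptophysin, an integral protein of the synaptic vesicle membrane, had 28.1 and 24.2 CPM in IRF1_OE replicates 1 and 3 and 2.18 and 1.77 CPM in control replicates 6 and 8. The replicates of each group lay close together and the groups far apart, with a log2 fold change of 3.73 ± 0.26 (SE; edgeR, adjusted p = 0.000206). SNAP91 (ENSSSCG00000004453, chr1:82540819-82697227, plus strand), the clathrin adaptor AP180 of vesicle retrieval, had 465 and 128 counts in IRF1_OE replicates 1 and 3 and 8 and 3 counts in control replicates 6 and 8. It was close to the floor in the controls and uneven between the IRF1_OE libraries, with a log2 fold change of 5.19 ± 0.73 (SE; edgeR, adjusted p = 0.00205). With IRF1_OE replicate 1, IRF1_OE replicate 3, control replicate 6 or control replicate 8 left out, this value was 4.18, 5.78, 6.13 and 4.60, respectively.

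SYT1 (ENSSSCG00000000948, chr5:101871314-102394307, minus strand), the calcium sensor of fast transmitter release, had 8.98 and 4.76 CPM in IRF1_OE replicates 1 and 3 and 0.448 and 1.03 CPM in control replicates 6 and 8. All IRF1_OE values exceeded the controls, and the log2 fold change was 3.19 ± 0.53 (SE; edgeR, adjusted p = 0.00403), or 3.93 without control replicate 8. SNAP25 (ENSSSCG00000026985, chr17:19141417-19227595, plus strand), the plasma membrane SNARE, had 18.3 and 10.7 CPM in IRF1_OE replicates 1 and 3 and 5.12 and 2.34 CPM in control replicates 6 and 8. The groups did not overlap, although the controls differed from each other by a larger factor than the IRF1_OE libraries, and the log2 fold change was 1.97 ± 0.43 (SE; edgeR, adjusted p = 0.0123). The SNAP25 call was lost without IRF1_OE replicate 1 (1.53; edgeR, adjusted p = 0.0709), and the value was 2.63 without control replicate 6.

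Among the members, the SNARE partners of SNAP25 were not called. VAMP2, the vesicle SNARE that pairs with SNAP25, had 42.1 and 39.2 CPM in IRF1_OE replicates 1 and 3 and 41.3 and 32.0 CPM in control replicates 6 and 8, and STX1A, the plasma membrane syntaxin of that complex, had 3.10 and 2.26 against 4.22 and 1.77 CPM. The groups overlapped for both, with log2 fold changes of 0.15 and -0.15. The synapsins, which tether vesicles to actin, were low in every library, with 26 and 17 against 14 and 9 counts for SYN1 and 23 and 19 against 11 and 21 counts for SYN2, and their log2 fold changes were 0.41 and -0.06. SYT11, a synaptotagmin that does not bind calcium, had 3.66 and 3.75 against 2.37 and 1.77 CPM, without overlap, but its log2 fold change of 0.84 ± 0.37 (SE; edgeR, adjusted p = 0.128) was not called. SYT4 was not tested and had 7 and 2 against 0 and 0 counts, so that IRF1_OE replicate 3 was under the floor as well.

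Among the neuronal RNA-binding proteins, 2 of 4 tested were higher (50.0%, against 8.61% of all genes tested). ELAVL2 (ENSSSCG00000005130, chr1:198963512-199135811, plus strand), the HuB protein that binds AU-rich sites in neuronal mRNAs, had 162 and 108 CPM in IRF1_OE replicates 1 and 3 and 10.1 and 13.4 CPM in control replicates 6 and 8. Both IRF1_OE libraries were far above the controls, with a log2 fold change of 3.51 ± 0.25 (SE; edgeR, adjusted p = 0.000227). ELAVL3 (ENSSSCG00000013617, chr2:70117066-70134348, minus strand), the related HuC protein, had 21.1 and 12.6 CPM in IRF1_OE replicates 1 and 3 and 8.45 and 5.95 CPM in control replicates 6 and 8. The groups did not overlap and the log2 fold change was 1.23 ± 0.32 (SE; edgeR, adjusted p = 0.0246), but the call was lost without IRF1_OE replicate 1 (0.82; edgeR, adjusted p = 0.205). ELAVL4 (HuD) had 7.53 and 6.54 against 4.67 and 4.92 CPM in IRF1_OE against control, without overlap, and CELF3, a splicing regulator, had 2.33 and 2.07 against 2.43 and 1.09 CPM, with overlap. Neither was called, at log2 fold changes of 0.55 and 0.33. RBFOX3, the antigen NeuN that marks mature neurons, was not tested and had 6 and 3 counts in IRF1_OE replicates 1 and 3 and 1 and 0 counts in control replicates 6 and 8, at or near the floor in all 4 libraries.

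Growth cone and membrane genes moved in both directions. CRMP1 (ENSSSCG00000022896, chr8:4733329-4805890, plus strand), which relays semaphorin signals to the cytoskeleton, had 213 and 195 CPM in IRF1_OE replicates 1 and 3 and 109 and 76.5 CPM in control replicates 6 and 8. Both IRF1_OE libraries were above both controls, with a log2 fold change of 1.14 ± 0.19 (SE; edgeR, adjusted p = 0.00419), which was 0.91 without control replicate 8 and so under the fold limit. Its paralogue DPYSL5 (ENSSSCG00000008560, chr3:112155542-112252968, minus strand), also named CRMP5, had 91.1 and 142 CPM in IRF1_OE replicates 1 and 3 and 329 and 343 CPM in control replicates 6 and 8. This gene was lower in both IRF1_OE libraries, with a log2 fold change of -1.53 ± 0.21 (SE; edgeR, adjusted p = 0.00195). DPYSL3, or CRMP4, had the highest level of all members per exon length in both groups. It had 959.8 and 1017 CPM in IRF1_OE replicates 1 and 3 and 968 and 1054 CPM in control replicates 6 and 8. Its groups overlapped, at a log2 fold change of -0.03 ± 0.12 (SE; edgeR, adjusted p = 0.872).

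GPM6A (ENSSSCG00000023328, chr15:38258493-38410040, minus strand), a membrane glycoprotein of growing neurites, had 70.0 and 51.5 CPM in IRF1_OE replicates 1 and 3 and 18.1 and 21.9 CPM in control replicates 6 and 8. It was higher in both IRF1_OE libraries, with a log2 fold change of 1.60 ± 0.20 (SE; edgeR, adjusted p = 0.00143). GAP43, the growth-associated protein of axon tips, had 8.57 and 19.1 CPM in IRF1_OE replicates 1 and 3 and 16.1 and 16.5 CPM in control replicates 6 and 8. The IRF1_OE libraries lay on either side of the controls, and the log2 fold change was -0.24 ± 0.35 (SE; edgeR, adjusted p = 0.649). RTN1, a reticulon of the endoplasmic reticulum, had 81.3 and 88.8 against 44.7 and 79.5 CPM, without overlap, and a log2 fold change of 0.45, which was not called.

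The axonal adhesion molecules held 2 of the 3 members that fell (33.3% of those tested in this role, against 10.6% of all genes tested). L1CAM (ENSSSCG00000012787, chrX:124596653-124609457, minus strand), an immunoglobulin-type adhesion protein of axons, had 4.35 and 6.83 CPM in IRF1_OE replicates 1 and 3 and 102 and 56.6 CPM in control replicates 6 and 8. Both controls were many times above both IRF1_OE libraries, with a log2 fold change of -3.83 ± 0.34 (SE; edgeR, adjusted p = 0.000468). NRCAM (ENSSSCG00000015445, chr9:107928866-108247749, minus strand), of the same L1 family, had 157 and 110.0 CPM in IRF1_OE replicates 1 and 3 and 18.4 and 27.3 CPM in control replicates 6 and 8. It went the other way in both libraries, with a log2 fold change of 2.55 ± 0.25 (SE; edgeR, adjusted p = 0.000598). CNTN2 (ENSSSCG00000040824, chr9:65737626-65776410, plus strand), a contactin anchored in the axonal membrane, had 28 and 21 against 51 and 62 counts in IRF1_OE against control. Both IRF1_OE libraries were below the controls and the log2 fold change was -1.66 ± 0.39 (SE; edgeR, adjusted p = 0.0162). The CNTN2 call was lost without IRF1_OE replicate 1 (-1.73; edgeR, adjusted p = 0.0968) and without IRF1_OE replicate 3 (-1.58; edgeR, adjusted p = 0.0942), with the value almost the same.

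The other adhesion molecules were not called. NCAM1, the neural cell adhesion molecule, had 401 and 460.0 CPM in IRF1_OE replicates 1 and 3 and 615 and 522 CPM in control replicates 6 and 8. It was abundant in all 4 libraries, and both IRF1_OE values were below both controls, at a log2 fold change of -0.40 ± 0.14 (SE; edgeR, adjusted p = 0.0748). NCAM2 had 2.90 and 3.12 against 1.28 and 1.83 CPM and CNTN1, a contactin like CNTN2, 0.604 and 0.625 against 0.640 and 0.972 CPM. Their log2 fold changes were 0.95 and -0.40, neither gene was called, and the groups did not overlap for either.

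Of the synaptic adhesion and scaffold genes, NLGN1 and DLG4 were tested, and neither was called. NLGN1, a neuroligin that joins the postsynaptic membrane to presynaptic neurexins, had 30 and 11 counts in IRF1_OE replicates 1 and 3 and 49 and 35 counts in control replicates 6 and 8. DLG4, the scaffold PSD-95 beneath excitatory synapses, had 5.35 and 6.54 CPM in IRF1_OE replicates 1 and 3 and 15.4 and 8.58 CPM in control replicates 6 and 8. Both genes were lower in both IRF1_OE libraries than in either control, with log2 fold changes of -1.54 ± 0.53 (SE; edgeR, adjusted p = 0.0637) and -1.01 ± 0.34 (SE; edgeR, adjusted p = 0.0580). Without control replicate 8, both were called lower (-1.82 and -1.37). Over the 4 libraries left out in turn, the values ranged from -2.25 to -1.08 for NLGN1 and from -1.37 to -0.53 for DLG4. NLGN1 was also called lower with no filter on low counts (edgeR, adjusted p = 0.0194), and DLG4 with scaling by library size alone (edgeR, adjusted p = 0.0485) and by DESeq2 (adjusted p = 0.0304).

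Granins are the acidic cargo proteins of dense-core secretory granules. CHGA (ENSSSCG00000002456, chr7:114345091-114358571, plus strand), chromogranin A, had 244 and 227 CPM in IRF1_OE replicates 1 and 3 and 52.3 and 30.4 CPM in control replicates 6 and 8. The IRF1_OE libraries were close together and far above the controls, with a log2 fold change of 2.51 ± 0.25 (SE; edgeR, adjusted p = 0.000655). SCG3 (ENSSSCG00000004630, chr1:120042435-120138175, minus strand), secretogranin III, had 54.1 and 42.3 CPM in IRF1_OE replicates 1 and 3 and 9.66 and 12.5 CPM in control replicates 6 and 8 and a log2 fold change of 2.12 ± 0.22 (SE; edgeR, adjusted p = 0.000694). CHGB, chromogranin B, was low in every library, with 10 and 13 counts in IRF1_OE replicates 1 and 3 and 11 and 11 counts in control replicates 6 and 8. The counts of CHGB gave a log2 fold change of -0.38, which was not called. SCG2, secretogranin II, was not tested and had 14 and 6 against 0 and 2 counts.

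**Figure D2:**
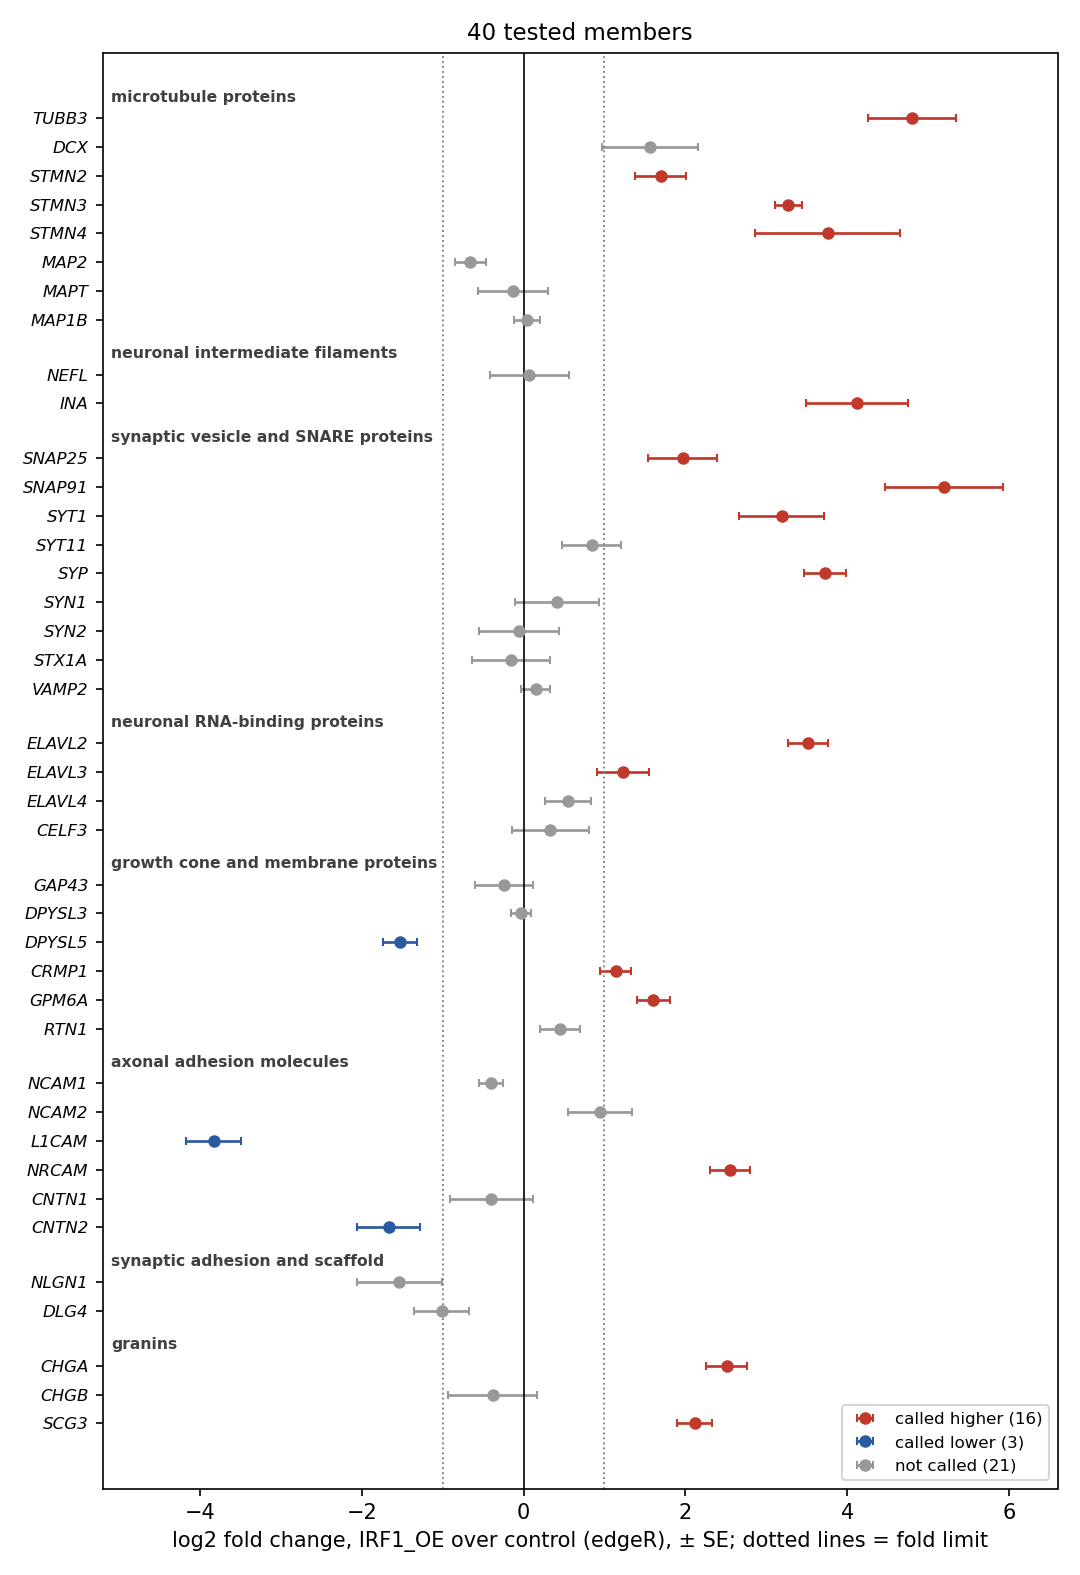
Fitted log2 fold change of the 40 tested members, IRF1_OE over control, with bars of 1 SE from edgeR and dotted lines at the fold limit. The 16 genes called higher run from CRMP1 at 1.14 to SNAP91 at 5.19, and the 3 called lower are DPYSL5, CNTN2 and L1CAM at -1.53, -1.66 and -3.83.

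Levels of different members were compared per exon length. In control cells, 24 of the 43 members had a mean of at least 1 RPKM and 10 had at least 10 RPKM, and in IRF1_OE cells these numbers were 31 and 14. The 3 most abundant members in control cells were DPYSL3, DPYSL5 and NCAM1, with 190.0 ± 11.4, 71.6 ± 2.11 and 56.7 ± 6.55 RPKM (SD, n = 2). In IRF1_OE cells they were DPYSL3, STMN2 and TUBB3, with 186 ± 7.62, 105 ± 53.1 and 96.1 ± 67.8 RPKM (SD, n = 2). CHGA followed at 81.4 ± 4.19 RPKM (SD, n = 2), and STMN2, TUBB3 and CHGA did not differ beyond their spread. STMN2 and TUBB3 were above CHGA in IRF1_OE replicate 1 but not in replicate 3, where CHGA had 78.4 RPKM, STMN2 67.7 RPKM and TUBB3 48.2 RPKM. All genes tested had medians of 6.92 RPKM in control and 6.69 RPKM in IRF1_OE cells. Of the members called higher, SCG3, SYP, SNAP25, INA, SNAP91, SYT1 and STMN4 had means in IRF1_OE cells that were below the latter median, from 6.65 ± 1.16 RPKM for SCG3 down to 3.21 ± 2.30, 1.48 ± 0.645 and 1.22 ± 1.05 RPKM for SNAP91, SYT1 and STMN4 (SD, n = 2).

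Within families, related genes differed in level and in direction, given here per length in IRF1_OE replicates 1 and 3 against control replicates 6 and 8. The sum of CRMP1, DPYSL3 and DPYSL5 was 252 and 269 RPKM in IRF1_OE replicates 1 and 3 and 279 and 290.0 RPKM in control replicates 6 and 8, nearly level between the groups while CRMP1 rose and DPYSL5 fell. The sum of L1CAM and NRCAM was 20.9 and 15.7 RPKM in IRF1_OE replicates 1 and 3 and 29.7 and 18.7 RPKM in control replicates 6 and 8, with overlap, although L1CAM had 1.17 and 1.84 against 27.4 and 15.2 RPKM and NRCAM 19.8 and 13.8 against 2.31 and 3.42 RPKM. The order of these adhesion genes was thus exchanged, L1CAM being the higher in both controls and NRCAM in both IRF1_OE libraries. The ubiquitous ELAVL1 (HuR), which is not a member, had 41.0 and 45.6 against 51.9 and 50.8 RPKM and stayed the most abundant ELAVL gene, while ELAVL2 had 29.9 and 19.9 against 1.87 and 2.48 RPKM. TUBB3 was below TUBB2B and TUBB4A in both controls and above both in each IRF1_OE library, TUBB2B having 35.7 and 36.0 against 47.1 and 44.1 RPKM. Reads from such paralogues can be shared where the sequence is alike, and how the authors counted reads that map to several places is not given in the sources used here.

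**Figure D3:**
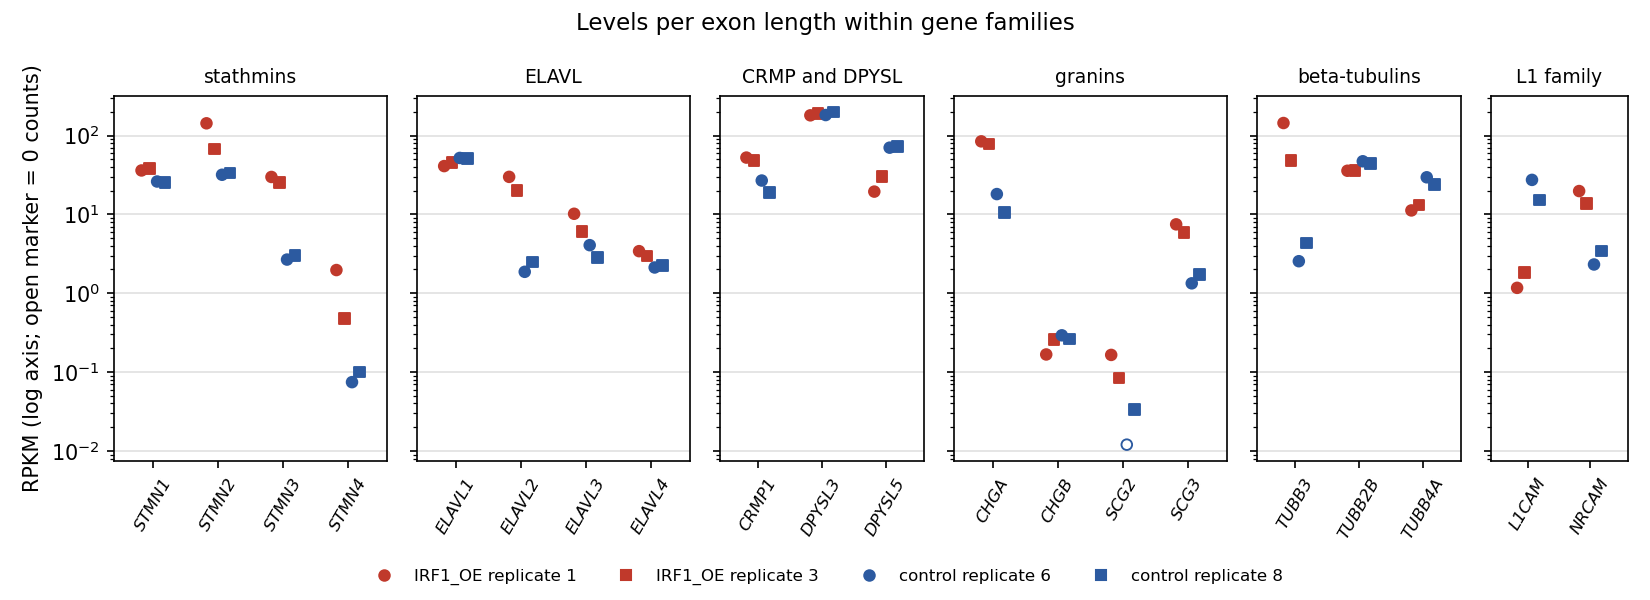
Level per exon length (RPKM, log axis) of each gene in 6 families, with 1 marker for each library (red for IRF1_OE, blue for control); STMN1, ELAVL1, TUBB2B and TUBB4A are relatives that are not members, chosen after the values were seen. L1CAM and NRCAM exchange order between the groups, and STMN3, ELAVL2, CHGA and TUBB3 lie well above their control values while the 4 values of DPYSL3 lie close together.

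The IRF1_OE libraries differed from each other in these genes. All 16 members called higher had more CPM in IRF1_OE replicate 1 than in replicate 3, with a median ratio of 1.59 and a range from 1.08 (CHGA) to 4.14 (STMN4). Among all 1141 genes called higher, 936 did so (82.0%), with a median ratio of 1.29, and among all genes tested 6571 of 13250 did (49.6%). DPYSL5 and L1CAM, called lower, were further from the controls in replicate 1 too, at ratios of 0.642 and 0.637, but CNTN2 was not, at 1.12. IRF1 had 330.3 and 264 against 3.52 and 3.20 CPM, and was also the higher in replicate 1. The share of mitochondrial counts was 8.62% and 7.57% in IRF1_OE replicates 1 and 3 and 6.29% and 6.68% in control replicates 6 and 8, and its part in the difference was not tested.

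Markers of other cell types were set beside these values. Of 11 genes of simple epithelium or trophectoderm, 10 have a named identifier, 8 were tested and 5 were lower (KRT8, KRT18, CLDN4, CLDN6 and TFAP2C), of which CLDN4 was not called without IRF1_OE replicate 1. Their summed level was 299 and 1159 CPM in IRF1_OE replicates 1 and 3 and 15842 and 9742 CPM in control replicates 6 and 8, of which KRT8 held most counts, with 250.1 and 1014 against 12015 and 7489 CPM, and CDX2 was at 0 in all 4 libraries. IRF1_OE replicate 1 was thus the lowest in this list, while the summed level of the 43 members was highest there, at 4253 and 3652 CPM in IRF1_OE replicates 1 and 3 and 3171 and 3239 CPM in control replicates 6 and 8. Of 18 fibroblast or feeder genes, 15 are named, 9 were tested, 2 were higher (COL1A2 and PRRX1) and 4 lower (COL1A1, COL6A1, DCN and PDGFRB). Their summed level was 325 and 253 CPM in IRF1_OE replicates 1 and 3 and 354 and 293 CPM in control replicates 6 and 8, with COL1A2 the gene with the most counts in IRF1_OE replicate 1 and FBN1 in the other libraries. PDGFRB had 28 and 62 against 1966 and 978 counts and DCN 3 and 1 against 19 and 19 counts, while COL5A1 and COL6A3 were at or under the floor of 3 counts in all 4 libraries. COL1A2 was not called without IRF1_OE replicate 1 or control replicate 8, nor DCN without IRF1_OE replicate 3. Of 14 glial genes, 13 are named and 6 were tested, with MBP higher at 531 and 254 against 25 and 33 counts and GFAP and ALDH1L1 among those lower. GFAP was not called with any 1 of the 4 libraries left out, nor ALDH1L1 without IRF1_OE replicate 1. The glial genes summed to 31.4 and 20.7 CPM in IRF1_OE replicates 1 and 3 and 27.3 and 22.8 CPM in control replicates 6 and 8, with most counts from MBP in the IRF1_OE libraries, and AQP4, CSPG4, OLIG1 and OLIG2 with at most 5 counts in any library. The 10 neuron markers, all of them members, summed to 759 and 336 CPM in IRF1_OE replicates 1 and 3 and 99.9 and 118 CPM in control replicates 6 and 8. TUBB3 and STMN2 held most of these counts in the IRF1_OE libraries, and STMN2 in the controls. Of the 9 tested, 5 were higher (55.6%), DCX, ELAVL4, MAPT and NEFL were not called, and RBFOX3 was not tested. Of the epithelial genes tested 62.5% were lower, and of the fibroblast genes 22.2% were higher and 44.4% lower. Of the glial genes 16.7% were higher and 50.0% lower, against 8.61% and 10.6% of all genes tested. The part of these cell types in the neuronal values was not tested.

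Other neural lists place the members among their pathways. Of 42 genes of the presynaptic release machinery, 35 were tested, 12 were higher and 2 lower, and the median log2 fold change was 0.54. Of 56 postsynaptic receptors and scaffolds, 39 were tested, 13 were higher and 3 lower, and the median was 0.52. These shares, 34.3% and 33.3% higher, stood beside the 40.0% of the members and 8.61% of all genes tested. The shares lower were 5.71% and 7.69%, against 10.6% of all genes tested. In these lists, 5 and 4 of the genes tested were under the filter limit in both controls. SYT6, a synaptotagmin, had 173 and 65 against 0 and 0 counts, which is at least 28.8-fold higher with the controls set at 3 counts per library (at least 17.2-fold without IRF1_OE replicate 1), and CPLX1, a complexin that clamps SNARE complexes, had 293 and 99 against 3 and 6 counts. PPFIA2, a liprin of the active zone, had 16 and 30 against 1 and 0 counts, and its call was lost without IRF1_OE replicate 3 (edgeR, adjusted p = 0.0716). LRFN5, a synaptic adhesion protein, had 239 and 209 against 1 and 0 counts, and the GABA receptor subunit GABRA5 had 2375 and 1468 against 89 and 94 counts. The kainate receptor subunit GRIK5 had the lowest log2 fold change of the 39 postsynaptic genes tested, with 114 and 146 against 1024 and 872 counts and a value of -3.32. Of the presynaptic genes called lower, SV2C, a vesicle glycoprotein, had 152 and 142 against 316 and 526 counts. The other, SYT7, had 1 and 4 against 14 and 13 counts, and its call was lost with any 1 of the 4 libraries left out (edgeR, adjusted p from 0.0531 to 0.249) and by DESeq2 (adjusted p = 0.118), which leaves 1 lower gene in place of 2. The presynaptic median was 0.84 without IRF1_OE replicate 3, and the postsynaptic median was 0.91 without control replicate 8. For CPLX1 the log2 fold change was 4.91, or 4.12 without IRF1_OE replicate 1.

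Few other cytoskeletal genes were called. Of 26 neuronal tubulins, motors and microtubule proteins, 23 were tested, 2 were higher and 3 lower, shares of 8.70% and 13.0% that lie near those of all genes, and the median log2 fold change was 0.06. This median was 0.01 and 0.15 without IRF1_OE replicate 1 or 3 and 0.16 and 0.26 without control replicate 6 or 8. KIF21B, a kinesin, and DCLK1, a doublecortin-like kinase, were higher at log2 fold changes of 1.85 and 1.43, and TTLL7, PRPH and TUBB4A were lower at -2.88, -2.08 and -1.13. The call of PRPH was lost without IRF1_OE replicate 1 (-1.81; edgeR, adjusted p = 0.0564), and TUBB4A was within the fold limit without control replicate 6 (-0.97). PRPH, peripherin, is an intermediate filament like INA and had 23 and 28 against 72 and 87 counts, so that these filament genes went in opposite directions.

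Among 16 neuronal splicing and RNA-binding genes, 14 were tested, 5 were higher and 2 lower. These were shares of 35.7% and 14.3%, against 8.61% and 10.6% of all genes tested. The median log2 fold change was 0.59, and 4 of the 14 were under the filter limit in both controls. SRRM4, a splicing factor of neural microexons, had 40.7 and 23.3 CPM in IRF1_OE replicates 1 and 3 and 0.320 and 0.686 CPM in control replicates 6 and 8. Both controls were near the floor and both IRF1_OE libraries far above it, with a log2 fold change of 5.95 ± 0.45 (SE; edgeR, adjusted p = 0.000250), or 6.63 without control replicate 8. KHDRBS2 and KHDRBS3, which bind RNA as regulators of splicing, had 132 and 80 against 1 and 2 counts and 31 and 89 against 0 and 2 counts, ratios of 51.3 (95% counting interval 17.3 to 251) and 43.5 (95% counting interval 11.8 to 364). The ratio of KHDRBS3 was 70.8 (19.0 to 594) without IRF1_OE replicate 1, 20.7 (5.26 to 178) without IRF1_OE replicate 3 and 23.0 (6.23 to 192) without control replicate 6. Without control replicate 8, which held its control counts, KHDRBS3 was at least 13.7-fold higher with the remaining control set at 3 counts. The lower genes were NOVA1 and MSI1, RNA-binding proteins of neurons and of neural progenitors, at log2 fold changes of -1.11 and -1.23. Both were within the fold limit without IRF1_OE replicate 1 (-0.85 and -0.99), so that 0 genes of the list were then lower. The median of the list was 0.31 without that library and 0.24 without control replicate 8. REST and RCOR1 have no named identifier, and of the 8 other genes listed with the REST repressor complex all were tested and 0 called by edgeR, DESeq2 or limma-voom, 0 of them at an unadjusted p under 0.05 by any of these, with log2 fold changes between -0.28 (RCOR3) and 0.19 (HDAC2).

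Neuronal transcription factors come before these effectors in development. Of 48 listed, 43 are named and 22 were tested, of which 15 were higher and 1 was lower. These were shares of 68.2% and 4.5%, against 8.61% and 10.6% of all genes tested. The median log2 fold change was 2.52. However, 6 of the 22 were under the filter limit in both controls, and of the 43 named genes 34.9% were higher, against 37.2% of the 43 named members. TLX3 had 1077 and 750 against 2 and 0 counts, a ratio of 663 (95% counting interval 183 to 5476). Its size rested on the control counts, being 313 (86.4 to 2584) without control replicate 8 and at least 233-fold higher without control replicate 6, with the remaining control set at 3 counts. NEUROG2 had 85 and 49 against 0 and 0 counts, at least 16.2-fold higher with the controls set at 3 counts per library, and POU3F1 had 245 and 262 against 2 and 1 counts, a ratio of 123 (95% counting interval 41.7 to 597), or 194 (34.7 to 7688) without control replicate 6. These DNA-binding regulators of neuronal fate were at or under the floor in both controls. They are named for the highest log2 fold changes of the list, a choice that favours genes with few control counts. Of the 40 tested members, 2 were under the filter limit in both controls, beside the 6 of 22 factors. OLIG3, the lower one, had 6 and 24 against 82 and 69 counts, and its call was lost without IRF1_OE replicate 1 (edgeR, adjusted p = 0.0506).

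Of 14 secretory granule and pan-neuronal enzymes, 11 were tested, with a median log2 fold change of 0.94. Of these, 1 of the 11, PCSK1, was under the filter limit in both controls. Called were 5 higher and 1 lower (45.5% and 9.09%, against 8.61% and 10.6% of all genes tested). These calls depended on the library: 3 genes were higher and 0 lower without IRF1_OE replicate 1 (median 0.60), 5 and 0 without control replicate 6, and 3 and 2 without control replicate 8. CADPS2, which primes dense-core vesicles, had 678 and 469 against 73 and 97 counts and PCSK1N, a granule protein that inhibits a prohormone convertase, 4342 and 2972 against 1038 and 754 counts. The convertase PCSK1 had 37 and 11 against 2 and 2 counts, and its call was lost without either control library (edgeR, adjusted p = 0.0773 without control replicate 6 and 0.0848 without control replicate 8) and by DESeq2 (adjusted p = 0.0719). It was not tested without IRF1_OE replicate 1. PTPRN, a membrane protein of dense-core granules, was the lower gene, with 4 and 9 against 47 and 15 counts, and was not called without IRF1_OE replicate 1 or control replicate 6 (edgeR, adjusted p = 0.197 and 0.248) or by limma-voom (adjusted p = 0.0558).

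Of 21 genes of transmitter synthesis and transport, 11 were tested, 6 were higher and 1 was lower. These were shares of 54.5% and 9.09%, against 8.61% and 10.6% of all genes tested. The median log2 fold change was 1.87, and 4 of the 11 were under the filter limit in both controls. GAD2, which makes GABA, had 181 and 98 against 0 and 0 counts, and DDC, which makes dopamine and serotonin from their precursors, had 100 and 24 against 0 and 0 counts, at least 33.7-fold higher and at least 15.0-fold higher with the controls set at 3 counts per library. The bound of DDC was at least 6.37-fold without IRF1_OE replicate 1. SLC6A4, the serotonin transporter, had 127 and 87 against 5 and 7 counts, and DBH, which makes noradrenaline, was lower with 38 and 62 against 151 and 177 counts. Of the 20 named genes of the list, 9 were not tested. TH, SLC32A1 and SLC6A2, which make or carry catecholamines or load GABA into vesicles, were at 0 in all 4 libraries, and GAD1, CHAT and TPH2, enzymes of GABA, acetylcholine and serotonin synthesis, were at 0 in both IRF1_OE libraries, with 0 and 4, 1 and 0, and 1 and 1 counts in the controls. These 6 were named after their values were seen. Without IRF1_OE replicate 1, 3 genes of this list were higher in place of 6, at a median of 0.81. Genes called lower numbered 2 without IRF1_OE replicate 3 and 2 without control replicate 8. With no filter on low counts the median was 0.50 over 17 genes. Setting the genes with 0 counts in both controls at these bounds left each list's median as given.

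Of 22 neural progenitor genes, 17 were tested, 7 were higher and 4 lower (41.2% and 23.5%, against 8.61% and 10.6% of all genes tested). Their median log2 fold change was 0.40, and 4 of the 17 were under the filter limit in both controls. This median was 0.61 without IRF1_OE replicate 3 and 0.61 without control replicate 6. PAX7 had 120 and 185 against 0 and 2 counts, a ratio of 111 (95% counting interval 30.4 to 918). This was 58.4 (16.04 to 485) without control replicate 6 and at least 34.8-fold higher without control replicate 8, with the remaining control set at 3 counts. NES, the intermediate filament of progenitors, had 508 and 423 against 1697 and 1082 counts and the Notch target HES5 1 and 0 against 11 and 14 counts. The call of HES5 was lost without IRF1_OE replicate 3 (edgeR, adjusted p = 0.0617), and HES5 was not tested without control replicate 8. Progenitor genes were thus found on both sides, as were adhesion and growth cone genes among the members.

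Of the 43 members, 35 share no exon base with another gene and 8 do. MAPT shares 1784 bases with KANSL1, SYN1 719 with ARAF, SYN2 90 with TIMP4, SCG3 559 with LYSMD2 and 184 with DMXL2, and ELAVL3 237 with PRKCSH, each on the opposite strand. GAP43 and GPM6A share 528 and 31 bases with genes without a symbol on the opposite strand, and DPYSL5 shares 231 with such a gene on its own strand. The strand setting of the counting is not given in the sources used here, so the counts of these 8 genes may hold reads of the neighbour. All coordinates are those of Sscrofa11.1.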

How the data were processed

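Per the labels and the study's methods, reads were filtered with trim_galore, mapped to Sscrofa11.1 with HISAT2 and counted per gene with featureCounts 1.6.4 (the methods also name htseq-count). The authors deposited whole-number counts of 24358 genes in 4 libraries and the exon length of each gene in bases, from which RPKM was computed here. The annotation release and strand setting are not given in the sources used here. The ChIP-seq libraries were not analysed here. Gene names matched 14692 identifiers.

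Counts were filtered with filterByExpr, scaled by TMM and tested with edgeR 4.0.16 in R 4.3.3 (quasi-likelihood, Benjamini-Hochberg adjustment over 13250 genes). The SE is the fold change divided by the square root of F. The floor was 3 counts per library, and intervals and floors cover counting error only. Alternatives (14) were other normalizations, filters, DESeq2 1.42.0, limma-voom 3.58.1, glmTreat, no fold minimum, and each library left out. The fit was also run on simulated data, and the outcome is not reported here. Every member is accounted for. Of each other list at most the 3 highest and 3 lowest called genes are named, together with IRF1, REST complex genes and cell type markers. Family relatives and some transmitter genes that were not tested were added after the values were seen. Results of some single genes are not reported here. Members and lists were chosen with earlier results of these data known.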

Additional observations from a re-analysis of the deposited data

How the results depend on the processing

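The alternatives left the direction of all 19 called members as it was. Of 560 values of the 40 tested members under 14 alternatives, 527 kept their direction and their side of the threshold, and 11 of the 16 members called higher kept the call in all 14. With glmTreat, a stricter test of the fold limit, 611 genes were higher and 603 lower, and 11 and 2 members were called. By that test, 8 postsynaptic, 2 granule and 3 transmitter genes were higher in place of 13, 5 and 6. With no fold minimum, which admits smaller changes, 1842 genes were higher. Without 1 library, genes called higher ranged from 756 to 1156, genes called lower from 874 to 1548, members called higher from 13 to 17 and members called lower from 2 to 5. The library left alone in its group is then assumed to vary like the other group.

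Values that changed sign were those of 9 uncalled members, and only when a library was left out. Over the 4 libraries left out in turn, the log2 fold changes ranged for MAPT from -0.60 to 0.59, MAP1B from -0.13 to 0.22, NEFL from -0.52 to 1.11, SYN2 from -0.38 to 0.39, STX1A from -0.64 to 0.60, VAMP2 from -0.016 to 0.34, CELF3 from -0.13 to 1.01, GAP43 from -0.92 to 0.24 and for DPYSL3 from -0.094 to 0.039. The cause was not tested. No paired analysis was possible because the groups share no replicate number.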
